A study of Mus musculus with 2 samples.

Results

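The genes described here are 9 linkers that carry force between the actin cytoskeleton and the plasma membrane. They are the actinins Actn1 and Actn4, the catenins Ctnna1, Ctnnb1 and Ctnnd1, and the adhesion linkers Vcl, Tln1, Zyx and Flna. They were taken by gene symbol from the 31053 features of a single-cell RNA-seq experiment on mouse back skin, and each symbol matched 1 feature. They include Actn1, Actn4 and Ctnna1, which the study names as direct targets of miR-205, a microRNA of skin epithelium. All 9 were detected in the kept cells of both libraries.

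The study compared 1 control mouse with 1 miR-205 inducible mouse at postnatal day 53, to learn what raised miR-205 does to the transcripts of skin cells. The paper places this time, after 4 days of induction, at the passage of follicles from rest to growth. Some induced follicles then held cells with Ki67, a marker of the cell cycle. The stage of the hair cycle may thus differ between the libraries, and its part in the ratios was not tested. In the inducible mouse a Krt14-rtTA transgene, active in Krt14-expressing keratinocytes, drives a pTRE2-miR-205 transgene when doxycycline is fed, so that dermal, immune and pigment cells are not the cells in which the transgene is designed to act. Both mice carried a Krt14-H2b-GFP allele, the strain is given as C57BL/6, and the miR-205 founders were made in FVB mice. Feeding of doxycycline in the chow began on postnatal day 49 and lasted 4 days. The extraction protocol says that both mice were fed doxycycline, whereas the sample labels call the control untreated. Sorted live cells of the epidermis, the follicle and the dermis were pooled at 3:5:2, and each mouse gave 1 10x Genomics library. A group of 1 library allows no test of the treatment. Every interval below is a 95% interval that covers counting error only, and no spread between animals was measured.

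Actin filaments end on membrane complexes of 2 main kinds. At adherens junctions, which join neighbouring cells, a cadherin binds β-catenin, β-catenin binds α-catenin, and α-catenin binds actin and takes up vinculin when it is stretched, while p120-catenin holds the cadherin at the surface. At focal adhesions, which hold the cell to the matrix, talin joins integrins to actin, vinculin reinforces that joint, and zyxin gathers where filaments are under strain. Actinins and filamins crosslink the filaments on which both kinds of complex pull. Keratinocytes of the follicle and the epidermis carry both kinds of complex, and stem cells of the bulge adhere through both to their neighbours and their niche.

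A microRNA pairs with transcripts mainly through bases 2 to 8 of its mature form, the seed. The mature miR-205 sequence is shown because each transcript was searched for its seed, which is in capitals. It was taken from RefSeq on build GRCm38.p6 (chr1:193507503-193507524, minus strand).
mmu-miR-205-5p: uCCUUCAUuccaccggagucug
The 7-base complement of the seed, ATGAAGG, was searched on the sense strand of the annotated transcript with the longest coding sequence of each gene. The 3′ untranslated region (UTR) held a match in 1 of the 9 linkers, Ctnnd1, and in 8.47% of the 19598 genes that have one. The coding sequence held a match in 4 of the 9, with 3 in Tln1 and 1 each in Ctnna1, Ctnnb1 and Flna, and in 19.2% of 22737 genes. No 5′ UTR of the 9 held one. Sites are shown for the linkers whose 23 bases lie within 1 exon, leaving out Ctnna1, with the match in capitals and coordinates on build NCBIM37. The Ctnnd1 site is in the 3′ UTR (chr2:84440766-84440788, minus strand), the Flna site is coding (chrX:71473699-71473721, minus strand) and the Tln1 site is coding (chr4:43562276-43562298, minus strand).
Ctnnd1: caactctaATGAAGGaaggttct
Flna: aggtcttcATGAAGGtcatacct
Tln1: gctggaggATGAAGGcggcaatg
The transcripts of Vcl, Zyx, Actn1 and Actn4 held no match in any region. This says only that these letters are not in the annotated transcript, and a match is a description rather than a measured site. Shorter or imperfect pairing and other transcripts of each gene were not searched. The paper identified Actn1, Actn4 and Ctnna1 as targets by capturing miR-205 ligated to the bound transcripts, which does not rest on this match. The lack of a match here thus does not speak to those targets.

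On build NCBIM37 the actinins lie at chr12:81268529-81361358 (Actn1, ENSMUSG00000015143, minus strand) and chr7:29678267-29747359 (Actn4, ENSMUSG00000054808, minus strand). The catenins lie at chr18:35278542-35414427 (Ctnna1, ENSMUSG00000037815, plus strand), chr9:120838334-120869625 (Ctnnb1, ENSMUSG00000006932, plus strand) and chr2:84440228-84490922 (Ctnnd1, ENSMUSG00000034101, minus strand). The adhesion linkers lie at chr14:21748655-21852895 (Vcl, ENSMUSG00000021823, plus strand), chr4:43544391-43575563 (Tln1, ENSMUSG00000028465, minus strand), chr6:42299827-42310145 (Zyx, ENSMUSG00000029860, plus strand) and chrX:71468800-71495159 (Flna, ENSMUSG00000031328, minus strand). The deposited counts may rest on another build, and they were joined by gene identifier, not by position.

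The filter that the study states kept 3936 control cells and 3628 induced cells, with medians of 12198.5 and 11752.5 unique molecular identifiers (UMIs) per cell, and 5 kept barcodes occurred in both libraries. Clustering without the 9 linkers among the variable genes gave 22 clusters, of which 20 had at least 20 cells in each library. Of these 14 were epithelial, with more Krt14 and Krt5 UMIs than Vim UMIs, and 6 were not. A cluster that met the marker rule is called by its class, such as HF-SC-like for hair follicle stem cells with Cd34, Krt24, Lhx2, Postn and Sox9 raised, and the others are called by a leading gene. IFE is the interfollicular epidermis and HF the hair follicle. No cluster met the rule for the hair germ, the progenitor compartment under the bulge. The Lgr5 cluster had the hair germ markers Lgr5, Cdh3, Gli1 and Shisa2 raised. It missed the rule because the smooth muscle genes Tagln and Acta2, and of the hair germ markers only Lgr5, were among its leading genes. The Pthlh cluster had the hair germ markers Gli1, Tgfb2 and Shisa2 raised, and also the stem cell markers Lhx2, Postn, Nfatc1 and Sox9. The Flg2 cluster met the upper HF rule but was led by the cornified envelope genes Flg2, Lor and Cnfn. The fibroblast-like cluster was led by collagen genes, but Schwann cell markers were also raised in it. The inner bulge-like cluster had Krt6a, Krt75 and Fgf18 raised, but also the stem cell markers Cd34, Lhx2, Postn and Sox9. Levels are UMIs of the gene per 1000000 UMIs of the cluster (CPM), and ratios are log2 of induced over control CPM with a pseudocount of 0.5 UMIs. A ratio is called past the fold where its log2 is 0.32 or more in size, and it is read where the libraries together hold at least 50 UMIs of the gene. In 16 clusters all 9 linkers reached that minimum, and these held 87 to 575 cells and 646573 to 9621743 UMIs per library.

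Each linker had its own distribution over the skin. Actn1, which crosslinks actin bundles, was the most uneven in the epithelium. In the control it was highest in the inner bulge-like cluster at 547 CPM (507 to 589), followed by 425 CPM (404 to 448) in HF-SC-like cells and 411 CPM (385 to 437) in the Lgr5 cluster, and these last 2 did not differ beyond counting error. It was 27.4 CPM (24.2 to 31.0) in IFE basal-like and 8.76 CPM (5.86 to 12.6) in IFE suprabasal-like cells, so that the highest epithelial cluster had 62.4 times the level of the lowest. Its close relative Actn4 spanned a 1.95-fold range over the same clusters, from 235 CPM (211 to 260) in the Sostdc1 cluster to 458 CPM (445 to 472) in IFE basal-like cells. Actn1 was thus highest in the bulge-like and Lgr5 clusters and lowest in the epidermis, while Actn4 was spread over follicle and epidermis.

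**Figure D1:**
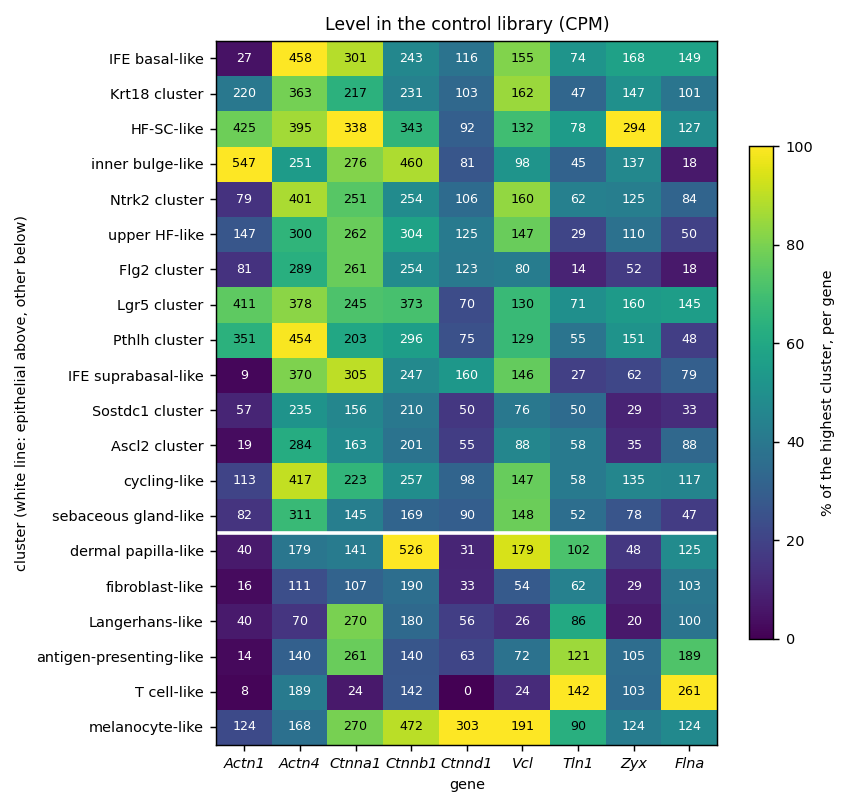
Level of each linker in the control library, in CPM, with a row per cluster and a column per gene; colour gives each level as a percent of that gene's highest cluster, so colours are read down a column only. Actn1 is brightest in the inner bulge-like cluster (547 CPM) and darkest among the epithelial clusters in IFE suprabasal-like cells (8.76 CPM).

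The other linkers were more even. Over the 14 epithelial clusters of the control the highest level was 2.13 times the lowest for Vcl, 2.33 times for Ctnna1, 2.72 times for Ctnnb1 and 3.22 times for Ctnnd1. It was 5.62 times for Tln1, 8.33 times for Flna and 10.1 times for Zyx. Zyx was highest in HF-SC-like cells at 294 CPM (276 to 312), the highest of all clusters of the control, and Ctnna1 was also highest there at 338 CPM (319 to 358). Flna and Tln1, by contrast, were lowest in the cornifying Flg2 cluster, at 17.9 CPM (13.9 to 22.7) and 13.9 CPM (10.4 to 18.2). Ctnnb1 was highest in the dermal papilla-like cluster at 526 CPM (471 to 585), and within the epithelium in the inner bulge-like cluster at 460 CPM (424 to 499). Ctnnd1 was 160 CPM (147 to 174) in IFE suprabasal-like cells and 116 CPM (109 to 123) in IFE basal-like cells. Ctnnd1 was highest in the melanocyte-like cluster, with 27 UMIs in the control and 30 in the induced library. Between neighbours in the order of clusters the intervals overlapped in 13 of 19 steps for Actn1 in the control and in 17 to 19 of 19 steps for each of the other 8.

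Outside the epithelium the balance of linkers was different. Tln1 had a median of 96.0 CPM over the 6 other clusters and 53.3 CPM over the epithelial ones in the control, and Flna had 124 and 81.4 CPM. The order was the other way for the 7 remaining genes, with medians of 154 and 367 CPM for Actn4 and 44.3 and 94.8 CPM for Ctnnd1. T cell-like cells, which lack epithelial junctions, had 0 Ctnnd1 UMIs in either library, which at the limit of 3 counts, in place of an interval, allows up to 23.7 CPM in the control and 21.1 CPM in the induced library. The same cells held 33 and 40 Flna UMIs, or 261 CPM (179 to 366) and 281 CPM (201 to 383). Ctnna1 was at 3 UMIs and 1 UMI there. Langerhans-like cells, epidermal dendritic cells that do form such junctions, had 270 CPM (227 to 320) of Ctnna1 in the control and 222 CPM (183 to 268) in the induced library. Krt14, a keratin of keratinocytes, was at 110 to 2315 CPM in the 6 clusters and reached 18813 CPM in the epithelial ones, and the part of keratinocyte RNA in the low levels was not tested. All 20 Actn1 UMIs of control Langerhans-like cells and all 15 of induced ones lay in at most 5 cells.

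Levels over the clusters were similar in both libraries for most linkers. Across the 20 clusters, Pearson's r between log2(CPM + 1) in control and induced cells was 0.788 for Vcl, the lowest, and 0.966 for Ctnna1, the highest. These points share the clustering and the depth of each cluster, so r is a description only. It compares log levels and not ranks. All 20 clusters entered, also those with few UMIs, such as T cell-like cells with 3 Ctnna1 UMIs in the control and 1 when induced. The part of such low points in r was not tested.

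Against this background the induced library was lower for some linkers and not for others. Over the 14 epithelial clusters there were 126 pairs of a linker and a cluster. In 99 of them the ratio was below 0, and in 31 it was lower past the fold, against 2 higher past the fold. Of all genes with enough UMIs, 10.3% to 22.5% were lower past the fold in these clusters and 14.0% to 25.7% were higher. Their median ratio per cluster lay between −0.03 and 0.08. The share of all genes below 0, or with an interval below 0, is not given. Counts of those kinds, here and below, thus have no background. All pairs come from the same pair of libraries and are not repeats of each other. Vcl accounted for 11 of the 31, Ctnnd1 for 5, and Actn4, Tln1, Zyx and Flna for 3 each. Ctnna1 accounted for 2, Actn1 for 1 and Ctnnb1 for 0. The median ratio of each gene over the 14 clusters ran from −0.48 for Vcl to 0.02 for Ctnnb1.

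**Figure D2:**
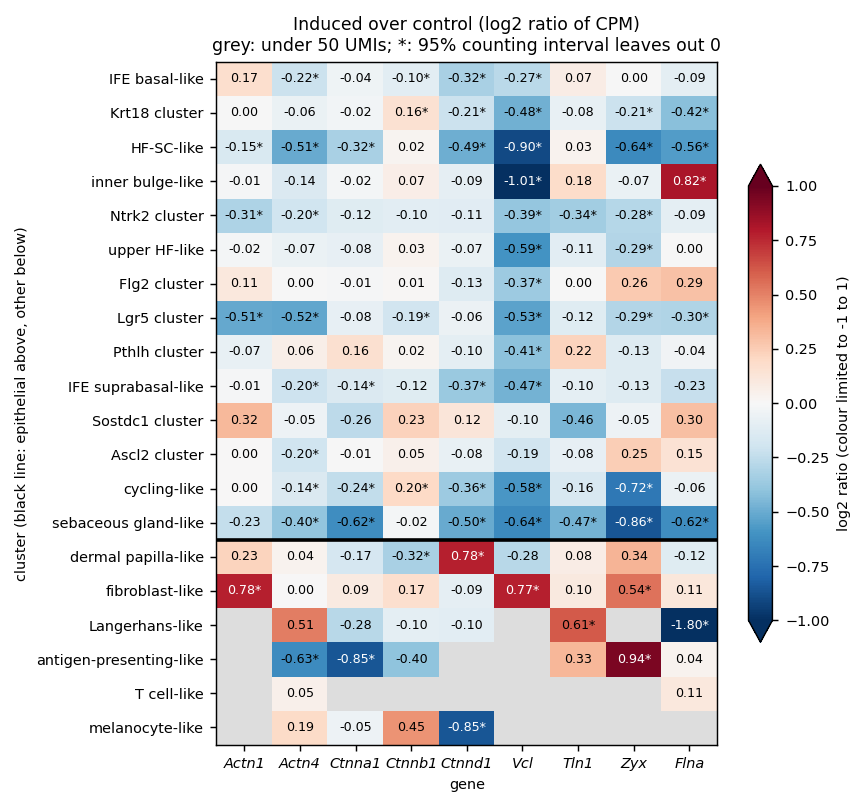
Log2 ratio of induced over control CPM for each linker (columns) and cluster (rows), with grey where a gene had under 50 UMIs and an asterisk where the 95% counting interval leaves out 0. The Vcl column is below 0 in all 14 epithelial clusters, down to −1.01, whereas the Ctnnb1 column stays between −0.19 and 0.23 there.

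Vinculin, which reinforces both junctions and focal adhesions under load, showed the broadest difference. In HF-SC-like cells Vcl had 456 UMIs in the control, or 132 CPM (120 to 145), and 248 UMIs in the induced library, or 70.7 CPM (62.1 to 80.0), a log2 ratio of −0.90 (−1.13 to −0.68). In the inner bulge-like cluster, named for the inner cell layer of the bulge, Vcl was 98.5 CPM (82.0 to 117) in 168 control cells. It was 48.9 CPM (41.2 to 57.6) in 379 induced cells, with a log2 ratio of −1.01 (−1.37 to −0.65). Krt14, whose promoter drives the transgene system, stood at 343 and 229 CPM in that cluster and at 9390 and 8248 CPM in HF-SC-like cells. The intervals of the Vcl levels did not overlap in either cluster, and the induced level of the inner bulge-like cluster was the lowest of the epithelium.

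The lower Vcl level was not particular to the bulge. The log2 ratio was −0.59 (−0.80 to −0.39) in upper HF-like cells, −0.64 (−0.92 to −0.36) in sebaceous gland-like cells, −0.58 (−0.84 to −0.33) in cycling-like cells and −0.53 (−0.78 to −0.29) in the Lgr5 cluster. In the epidermis it was −0.27 (−0.39 to −0.14) in IFE basal-like cells, with 155 CPM (147 to 163) in the control and 129 CPM (120 to 138) when induced, and −0.47 (−0.69 to −0.26) in IFE suprabasal-like cells, with 146 CPM (133 to 160) in the control and 105 CPM (93.7 to 118) when induced. The interval lay below 0 in 12 of the 14 epithelial clusters, the exceptions being the Ascl2 cluster at −0.19 (−0.56 to 0.17) and the Sostdc1 cluster at −0.10 (−0.53 to 0.32). With cells thinned to 5000 UMIs the Sostdc1 cluster turned to 0.62, and 13 of 14 clusters were below 0. With cells under 5% mitochondrial UMIs it was 0.10, and 11 of 12 clusters were below 0. The Flg2 ratio for Vcl, −0.37, was −0.05 in thinned cells, and the Pthlh ratio, −0.41, was −0.19 with cells under 5% mitochondrial UMIs.

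**Figure D3:**
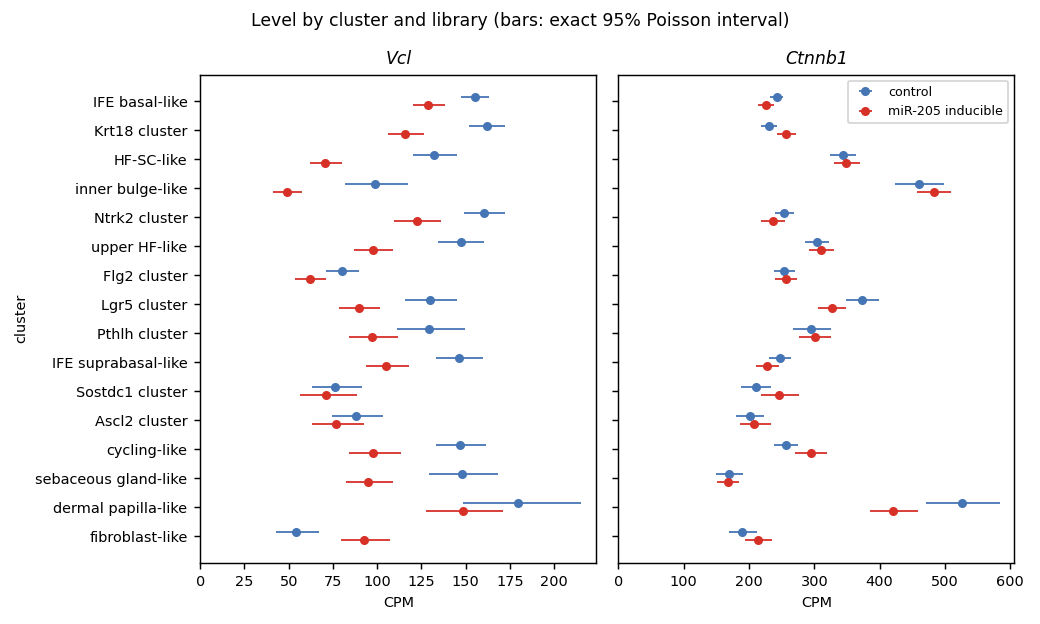
Level of Vcl (left) and Ctnnb1 (right) in CPM by cluster, control in blue and induced in red, with exact 95% Poisson intervals, for the 16 clusters in which all 9 linkers reached 50 UMIs. Red lies left of blue for Vcl in every epithelial cluster and right of it in the fibroblast-like cluster (54.0 and 92.6 CPM), while for Ctnnb1 the points lie close together in most clusters.

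In the cells that are not designed to express the transgene Vcl had no single direction. Fibroblast-like cells had 83 UMIs in the control, or 54.0 CPM (43.0 to 66.9), and 181 in the induced library, or 92.6 CPM (79.6 to 107), a log2 ratio of 0.77 (0.40 to 1.17). Dermal papilla-like cells, the signalling fibroblasts under the follicle, had 179 CPM (148 to 215) and 148 CPM (128 to 171), a log2 ratio of −0.28 (−0.62 to 0.07). Krt14, a sign of keratinocyte RNA, was at 833 and 424 CPM in control and induced fibroblast-like cells and at 1050 and 419 CPM in dermal papilla-like cells. Krt5, its partner keratin, was at 224 and 193 CPM and at 419 and 268 CPM, and their part in these ratios was not tested. The collagen gene Col1a1 also differed within the fibroblast-like cluster, at 35069 CPM in control and 20027 CPM in induced cells, and its relation to the higher Vcl, Actn1 and Zyx levels there was not tested.

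The actinins were lower in the follicle at different places. Actn4 in HF-SC-like cells was 395 CPM (374 to 416) in control cells and 278 CPM (261 to 296) in induced cells, with a log2 ratio of −0.51 (−0.63 to −0.39), while Actn1 there was 425 CPM (404 to 448) in control cells and 383 CPM (363 to 405) in induced cells, with a log2 ratio of −0.15 (−0.26 to −0.04). In the Lgr5 cluster both were lower by a like amount, with Actn1 at 411 CPM (385 to 437) in control cells and 289 CPM (269 to 310) in induced cells, with a log2 ratio of −0.51 (−0.65 to −0.37), and Actn4 at −0.52 (−0.66 to −0.37). In the inner bulge-like cluster, where Actn1 is highest, it stood at 547 CPM (507 to 589) and 542 CPM (516 to 569), with a log2 ratio of −0.01 (−0.14 to 0.12).

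Beyond these clusters the Actn4 ratio was −0.40 (−0.58 to −0.21) in sebaceous gland-like cells, −0.22 (−0.29 to −0.14) in IFE basal-like cells and −0.20 (−0.33 to −0.08) in IFE suprabasal-like cells. It was near 0 in the Flg2 cluster, at 0.00 (−0.13 to 0.13), and in the Pthlh cluster, at 0.06 (−0.08 to 0.21). The Actn4 interval lay below 0 in 8 of 14 epithelial clusters and the Actn1 interval in 3, which were HF-SC-like cells, the Lgr5 cluster and the Ntrk2 cluster at −0.31 (−0.58 to −0.05).

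The share of Actn4 among the UMIs of both actinins does not depend on the total of the cluster. It was 94.4% (exact interval 93.7 to 95) in control and 92.8% (91.7 to 93.7) in induced IFE basal-like cells, and 31.5% (28.6 to 34.5) and 29.6% (27.7 to 31.6) in the inner bulge-like cluster. In HF-SC-like cells it was 48.1% (46.3 to 49.99) in the control and 42.0% (40.0 to 44.0) in the induced library, and these intervals did not overlap. In the Lgr5 cluster it was 47.9% (45.6 to 50.3) and 47.8% (45.2 to 50.4). The actinins were thus lower together in the Lgr5 cluster, while in HF-SC-like cells Actn4 was lower by more than Actn1.

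**Figure D4:**
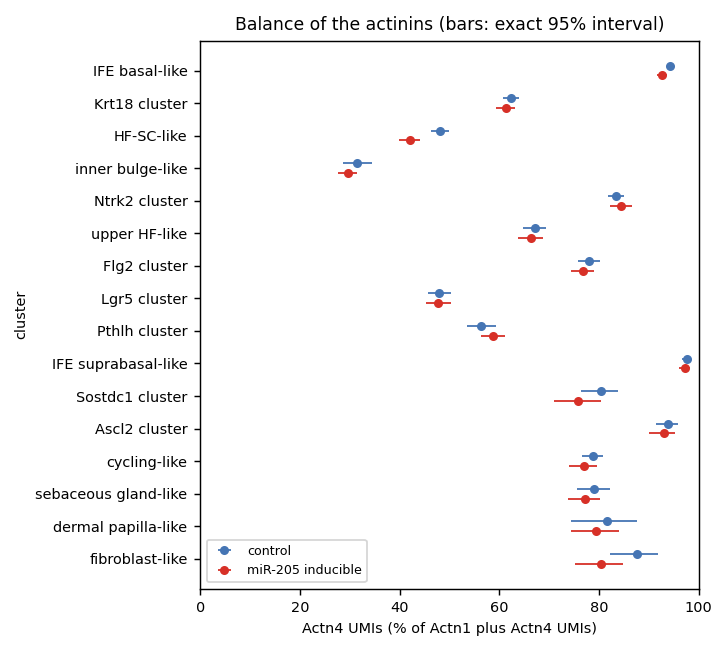
Actn4 UMIs as a percent of Actn1 plus Actn4 UMIs by cluster, control in blue and induced in red, with exact 95% intervals. The share runs from 31.5% in the inner bulge-like cluster to 97.7% in IFE suprabasal-like cells of the control, and in HF-SC-like cells the libraries stand apart at 48.1% and 42.0%.

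Among the catenins, β-catenin, which joins cadherin to α-catenin and also carries WNT signals in the nucleus, was the steadiest. Ctnnb1 in HF-SC-like cells was at 343 CPM (324 to 363) and 349 CPM (330 to 369), a log2 ratio of 0.02 (−0.09 to 0.14). In no epithelial cluster did it pass the fold, and in thinned cells, or with cells under 5% mitochondrial UMIs, it was higher past the fold in 1. The Ctnnb1 interval lay above 0 in 2 epithelial clusters, the Krt18 cluster at 0.16 (0.04 to 0.27) and cycling-like cells at 0.20 (0.03 to 0.36). It lay below 0 in 2, the Lgr5 cluster and IFE basal-like cells at −0.10 (−0.20 to −0.01). The largest Ctnnb1 ratios in the epithelium were −0.19 (−0.33 to −0.06) in the Lgr5 cluster and 0.23 (−0.01 to 0.46) in the Sostdc1 cluster. In dermal papilla-like cells Ctnnb1 was 526 CPM (471 to 585) in control cells and 421 CPM (385 to 458) in induced cells, with a log2 ratio of −0.32 (−0.52 to −0.12). That ratio is just past the fold and was −0.27 with totals that leave out mitochondrial and ribosomal genes.

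α-Catenin, the actin-binding arm of the junction, was lower in a pair of clusters. Ctnna1 was 338 CPM (319 to 358) against 270 CPM (253 to 288) in control and induced HF-SC-like cells, a log2 ratio of −0.32 (−0.45 to −0.20), and 145 CPM (127 to 165) against 94.5 CPM (82.0 to 108) in sebaceous gland-like cells, a log2 ratio of −0.62 (−0.90 to −0.34). The first of these is just past the fold and missed it at 4 of 8 alternatives, with a highest value of −0.28, and the second was −0.31 in thinned cells. In the largest epidermal cluster, IFE basal-like, it was at 301 CPM (290 to 312) and 292 CPM (279 to 306), a log2 ratio of −0.04 (−0.13 to 0.04).

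p120-Catenin, whose transcript holds the seed match in its 3′ UTR shown above, was lower past the fold in 5 epithelial clusters. Of the linkers without a match in any region, Vcl was lower in 11, Actn4 and Zyx in 3 each and Actn1 in 1. Of those with a coding match, Tln1 and Flna were lower in 3 each, Ctnna1 in 2 and Ctnnb1 in 0. The relation of these counts to the matches was not tested. The largest of these Ctnnd1 differences were in sebaceous gland-like cells, with 90.5 CPM (76.2 to 107) in the control and 63.8 CPM (53.6 to 75.4) when induced, and in HF-SC-like cells, with 91.6 CPM (81.8 to 102) in the control and 65.2 CPM (57.1 to 74.3) when induced, with log2 ratios of −0.50 (−0.85 to −0.15) and −0.49 (−0.74 to −0.24). The others were IFE suprabasal-like cells at −0.37 (−0.57 to −0.18), which became −0.25 in thinned cells, cycling-like cells at −0.36 (−0.67 to −0.07), which became −0.13 with cells under 5% mitochondrial UMIs, and IFE basal-like cells at −0.32 (−0.47 to −0.18). In the Lgr5 cluster it was −0.06 (−0.37 to 0.26). In dermal papilla-like cells, from 20 and 67 UMIs, it was higher, at 30.9 CPM (18.9 to 47.8) and 54.0 CPM (41.8 to 68.6), a log2 ratio of 0.78 (0.07 to 1.60).

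Talin, which switches integrins on and ties them to actin, stood at 78.0 CPM (69.0 to 87.9) and 79.8 CPM (70.7 to 89.7) in HF-SC-like cells, a log2 ratio of 0.03 (−0.21 to 0.28). With cells under 5% mitochondrial UMIs this became −0.35. Tln1 was lower past the fold in sebaceous gland-like cells at −0.47 (−0.93 to −0.01), in the Ntrk2 cluster at −0.34 (−0.66 to −0.05), which was −0.08 in thinned cells and −0.27 with cells under 5% mitochondrial UMIs, and in the Sostdc1 cluster at −0.46 (−1.06 to 0.10), whose interval holds 0. Tln1 was not past the fold in the other 11 epithelial clusters.

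Zyxin, a LIM protein of strained filaments, showed a patchy difference. Zyx in HF-SC-like cells had 1013 UMIs, or 294 CPM (276 to 312), in the control and 663 UMIs, or 189 CPM (175 to 204), in the induced library, a log2 ratio of −0.64 (−0.78 to −0.49). It was −0.72 (−1.001 to −0.45) in cycling-like cells, though −0.25 with cells thinned to 5000 UMIs, and −0.86 (−1.27 to −0.46) in sebaceous gland-like cells, the lowest of its ratios. In IFE basal-like cells Zyx was 168 CPM (159 to 176) and 167 CPM (157 to 178), a log2 ratio of 0.00 (−0.12 to 0.11), and in the inner bulge-like cluster it was −0.07 (−0.33 to 0.20). The Zyx interval lay below 0 in 7 of 14 epithelial clusters, of which 3 were past the fold. The 5 cycling-like cells with the most Zyx held 14.5% of its UMIs in the control and 34% in the induced library.

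Filamin A, which builds actin meshes and binds integrin tails, was lower past the fold in HF-SC-like cells at −0.56 (−0.77 to −0.34), with 127 CPM (115 to 139) in the control and 86.3 CPM (76.9 to 96.6) when induced. The same held for sebaceous gland-like cells at −0.62 (−1.12 to −0.12) and the Krt18 cluster at −0.42 (−0.62 to −0.23), though the Krt18 value was −0.09 in thinned cells and −0.77 with cells under 5% mitochondrial UMIs. Flna was higher in the inner bulge-like cluster, with 23 UMIs or 18.1 CPM (11.5 to 27.2) in the control and 95 UMIs or 32.5 CPM (26.3 to 39.7) when induced, a log2 ratio of 0.82 (0.17 to 1.57). The HF-SC-like and inner bulge-like clusters thus stood on opposite sides of 0 for Flna, and the difference between them was not tested.

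Read by cluster, the lower levels gathered in HF-SC-like and sebaceous gland-like cells. In HF-SC-like cells, 353 in the control and 354 in the induced library, 6 of the 9 linkers were lower past the fold and 0 higher, where 13.5% of 7699 genes were lower and 25.7% higher, and the median ratio over the linkers was −0.49 against 0.08 over all genes. In sebaceous gland-like cells, of which there were 87 and 110, 7 of 9 were lower and 0 higher, where 22.5% of 5754 genes were lower and 17.5% higher, with medians of −0.50 and −0.03. The dissociation list, 16 immediate early and heat shock genes that rise when tissue is taken apart, summed to 25787 CPM in control and 29769 CPM in induced HF-SC-like cells, and to 8391 and 7406 CPM in sebaceous gland-like cells, and its part in the ratios was not tested.

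**Figure D5:**
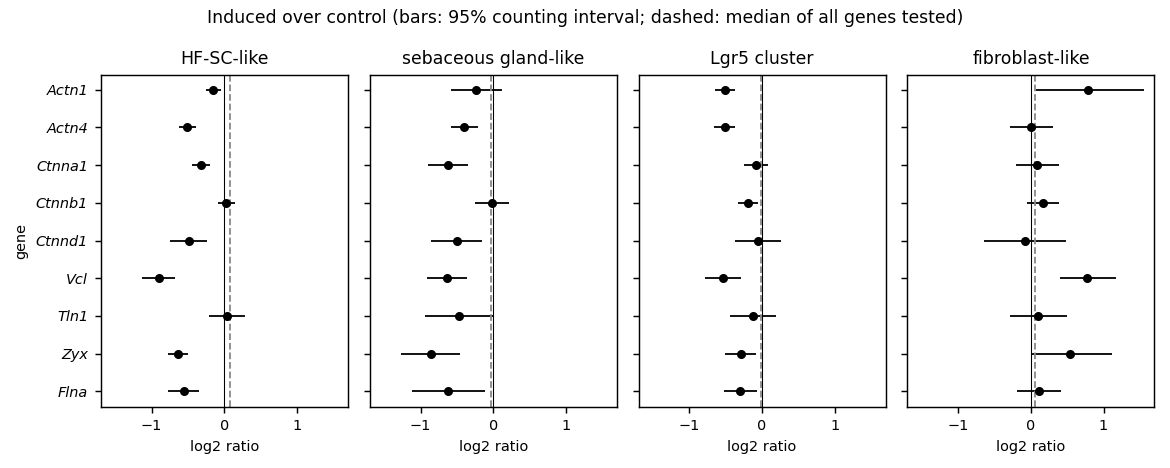
Log2 ratio of induced over control for each linker in 4 clusters, with 95% counting intervals, a line at 0 and a dashed line at the median of all genes tested. In HF-SC-like and sebaceous gland-like cells most points lie left of both lines, with Ctnnb1 at 0.02 and −0.02, and in fibroblast-like cells Actn1, Vcl and Zyx lie to the right.

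In 2 other clusters 3 of the 9 linkers were lower. These were Actn1, Actn4 and Vcl in the Lgr5 cluster, where 20.1% of genes were lower, with a median of −0.29 over the linkers and −0.01 over all genes, and Ctnnd1, Vcl and Zyx in cycling-like cells, where 20% were lower, with medians of −0.16 and −0.03. The dissociation list stood at 11586 and 17896 CPM in control and induced cells of the Lgr5 cluster, and at 11280 and 14836 CPM in cycling-like cells. A pair of linkers was lower in the Krt18 cluster (Vcl and Flna, background 10.3%), the Ntrk2 cluster (Vcl and Tln1, 12.9%) and IFE suprabasal-like cells (Vcl and Ctnnd1, 15.8%). Counts of 3 or 2 in 9 against these backgrounds are not read as a result about the linkers as a group.

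A single linker was lower in IFE basal-like cells (Ctnnd1, background 10.8%), and Vcl alone in the inner bulge-like cluster (12.8%), upper HF-like cells (10.3%), the Flg2 cluster (11.5%) and the Pthlh cluster (15.6%). In the Sostdc1 cluster Tln1 was lower (14.9%) and Actn1 higher (18.8%) past the fold, both with intervals that hold 0, and in the Ascl2 cluster, where 16% of genes were lower, none of the 9 was. Flna was the 1 linker higher in the inner bulge-like cluster, where 18.9% of genes were higher. A share of 1 in 9 is near these backgrounds and is not a result about the linkers as a group. The median over the 9 linkers was below the median of all genes in 13 of the 14 epithelial clusters. Some margins were small, with −0.0009 against 0.02 in the Flg2 cluster, −0.04 against −0.01 in the Pthlh cluster and −0.02 against 0.03 in the inner bulge-like cluster. The clusters share 1 pair of libraries, and no background from other sets of 9 genes was computed, so this count is a description only.

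The counts in the 2 dermal clusters are given beside their backgrounds and are not read as a direction. In fibroblast-like cells 3 of 9 linkers were higher past the fold, where 22.2% of genes were higher, and none was lower, where 12.1% were. Besides Vcl these were Actn1, with 24 and 53 UMIs and a log2 ratio of 0.78 (0.08 to 1.56), and Zyx, with 44 and 82 UMIs and a ratio of 0.54 (0.01 to 1.11). The 5 cells with the most Actn1 held 50% of its UMIs in control and 35.8% in induced fibroblast-like cells. In dermal papilla-like cells Ctnnd1 and Zyx were higher, where 17.3% of genes were higher, and Ctnnb1 was lower, where 24.2% were, with Zyx at 0.34 (−0.27 to 1.01).

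The small immune and pigment clusters held few UMIs, and their counts over the linkers are not read. In Langerhans-like cells Flna had 50 UMIs in the control, or 100 CPM (74.3 to 132), and 14 in the induced library, or 28.0 CPM (15.3 to 47.1), a log2 ratio of −1.80 (−2.80 to −0.96). Tln1 there was at 0.61 (0.04 to 1.21). In antigen-presenting-like cells Zyx had a log2 ratio of 0.94 (0.42 to 1.5) and Ctnna1 of −0.85 (−1.32 to −0.40), from 28 control and 33 induced cells, where Krt14 stood at 2315 and 110 CPM and its part in the Ctnna1 ratio was not tested. The 5 cells with the most Zyx held 66.7% and 60% of its UMIs in antigen-presenting-like cells, and the 5 with the most Flna held 52% and 78.6% in Langerhans-like cells. In melanocyte-like cells Ctnnd1 was at −0.85 (−1.65 to −0.05).

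The linkers were also summed in each cell after thinning to 5000 UMIs, which leaves depth out of the comparison. The median HF-SC-like cell held 10 linker UMIs in the control (quartiles 8 to 14, 329 cells) and 8 in the induced library (6 to 11, 340 cells). The Lgr5 cluster had medians of 10 (6.5 to 13) and 7 (4 to 10.25), and sebaceous gland-like cells had 5 (3.5 to 8) and 4 (2 to 6). The median was higher in the induced library in fibroblast-like cells, at 3 (2 to 5) and 4 (2 to 6), in the Flg2 cluster, at 5 (3 to 8) and 6 (4 to 8), in the Pthlh cluster, at 8 and 9, and in the Sostdc1 cluster, at 4 and 5. The quartile ranges of the libraries overlapped in each of these clusters, so single cells of the groups were not separated by their linkers.

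Other genes of the same complexes were read from a list of 40 focal adhesion genes and a list of 20 adherens junction genes. In HF-SC-like cells 12 of 34 focal adhesion genes with enough UMIs were lower past the fold and 5 higher, with a median of −0.12. Over all genes there the shares were 13.5% and 25.7%, and the median was 0.08. Fhl2, a LIM adaptor, was lowest at −1.52 (179 and 63 UMIs), followed by the PDZ and LIM protein Pdlim7 at −0.83, while the integrin activator Fermt1 was at 0.35. In sebaceous gland-like cells 12 of 25 were lower and 1 higher, where 22.5% and 17.5% of all genes were, with a median of −0.32, led by Pdlim5 at −0.82 and Csrp1 at −0.57, both LIM proteins of the actin cytoskeleton. In the Flg2 cluster 1 of 20 was lower and 9 were higher, where 11.5% and 15.5% of all genes were, with medians of 0.26 over the list and 0.02 over all genes.

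Of the adherens junction genes 4 of 14 were lower and 3 higher in HF-SC-like cells, where 13.5% and 25.7% of all genes were, with a median of 0.12, and over the 14 epithelial clusters the median ran from −0.20 to 0.15. Single genes of this list recurred by the naming rule. Lima1, which binds α-catenin and actin, was named as lower in 5 clusters, from −0.66 in IFE suprabasal-like cells to −0.33 in IFE basal-like cells. Nectin1, an adhesion receptor beside cadherin, was named as higher in 6 clusters, at 0.40 to 0.82, and Ctnnbip1, an inhibitor of β-catenin, as higher in 5, at 0.40 to 0.72. On the focal adhesion list the force-sensing adaptor Bcar1 was named as higher in 5 clusters, at 0.37 to 0.60. The rule names only the highest and lowest ratios past the fold in a cluster, so the side of 0 of a named gene follows from the rule. Clusters in which a gene was not named are left out of its count. Enah, Pdlim1, Pdlim7, Tns1 and Limd1 were named as lower in some clusters and as higher in others. The counts describe the extremes of the lists and no direction of the adhesion genes as a group.

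To place each linker among all genes, its level over the 20 clusters of both libraries was compared with 8857 genes that had at least 500 UMIs. These 40 points share libraries, clusters and depth, so r is a description. They include clusters with few UMIs. T cell-like cells, with 0 Ctnnd1 UMIs in either library and 3 and 1 Ctnna1 UMIs, were the lowest points of both genes. The part of such points in r was not tested. The genes most like Vcl were Srf, the transcription factor that drives actin genes, with r of 0.861, and the actin-severing factor Cfl2, with 0.836. Actn1 was most like Ptn (0.875) and Lhx2 (0.827), the second of which is a marker used here for stem cells of the follicle. Actn4 was most like the desmosome gene Pkp3 (0.876), and the tight junction gene Mpp5 was among the genes most like Ctnna1 (0.893). Tln1 was most like the ferritin gene Ftl1 (0.914), and Zyx had the weakest neighbours, led by Cdc42ep3 (0.701). Among the linkers themselves Ctnna1 and Ctnnd1 were most alike (0.915), followed by Tln1 and Flna (0.663), and Tln1 ran against Actn4 (−0.451).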

How the data were processed

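Single-cell RNA-seq counts of back skin cells from 1 control and 1 miR-205 inducible mouse were analysed. Reads were processed by the authors in Cell Ranger (software version 3.0.1 in the file headers), and raw UMI counts by gene and barcode were deposited, without normalization. The submitters' processing notes list mm10 with no role given. The control library held 4545 barcodes and 55465594 UMIs, the induced library 4264 and 49733560. Cells were kept with more than 200 and fewer than 5000 genes and under 10% mitochondrial UMIs. Libraries were integrated in Seurat 5.3.0 (R 4.3.3) with 2000 variable genes, 30 dimensions and Louvain resolution 0.8, leaving out the 9 linkers, the lists and the dissociation genes. A cluster was named with at least 3 markers of at least 20 UMIs raised 2-fold, with 1 or more of them among its top 10 genes and no class having more of its own there. A non-epithelial name also needed more Vim than Krt14 and Krt5 UMIs. The marker lists, the members and the other lists were chosen with earlier results of these data known. Doublets were kept. The automatic threshold of Scrublet (scanpy 1.11.5) marked 4 and 5 barcodes and was set aside. In 1 alternative the 165 and 145 barcodes with the highest scores were left out, assuming 0.8% doublets for each 1000 cells.

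UMIs were summed per cluster and library. CPM, log2 ratios and exact Poisson or Clopper-Pearson intervals were computed in Python 3.11.15 (scipy 1.17.1). The ratios and their intervals were tried on simulated Poisson counts, which is the model that the intervals assume. That trial checks the computation and cannot show that the intervals hold where a few cells carry many of the UMIs. PCR duplicates are collapsed by the UMIs, and intervals cover counting error only. No p-value was computed. All linkers were described in every cluster, and of each other list the 2 highest and 2 lowest ratios past the fold per epithelial cluster, among genes with at least 200 UMIs. For likeness the 3 genes with the highest r were taken. Some genes are not reported here. Alternatives changed the total, size factor, averaging, mitochondrial limit, doublets, depth, resolution, minimum UMIs, fold and the most extreme cells. At resolution 0.5 a cluster was matched by its name or leading gene. Transcripts came from GENCODE vM1 (NCBIM37). Mature miR-205 is not counted by this assay of polyadenylated RNA, so its level was not checked.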

Additional observations from a re-analysis of the deposited data

Results flagged for a closer look

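For 6 of the linkers 1 cluster was lower past the fold and another higher, with counting intervals on opposite sides of 0. The difference between the clusters was not tested, since there is 1 library per group and every ratio comes from the same pair of libraries. Vcl had a log2 ratio of −1.01 in the inner bulge-like cluster and 0.77 in fibroblast-like cells. Actn1 was at −0.51 in the Lgr5 cluster and 0.78 in fibroblast-like cells. Ctnnd1 was at −0.85 in melanocyte-like cells, from 27 and 30 UMIs, and 0.78 in dermal papilla-like cells. Tln1 was at −0.47 in sebaceous gland-like cells and 0.61 in Langerhans-like cells, and Zyx at −0.86 in sebaceous gland-like cells and 0.94 in antigen-presenting-like cells. Flna was at −1.80 in Langerhans-like cells and 0.82 in the inner bulge-like cluster, the 1 such pair of which the higher side is epithelial. For Vcl, Actn1, Tln1 and Zyx the lower side was epithelial and the higher side was dermal or immune.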

How the results depend on the processing

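No alternative that was run changed the side of 0 of any of the 31 epithelial ratios lower past the fold. Of these, 21 stayed past it under every alternative run. Between 5 and 8 alternatives were run for each ratio. The limit of 5% mitochondrial UMIs was not run in the inner bulge-like and sebaceous gland-like clusters. Their median mitochondrial shares were 7.26% and 6.52%, and 7.94% and 7.36%, in control and induced cells. Their ratios were thus not checked against that limit. The median over the 9 linkers kept its sign under every alternative run in HF-SC-like cells (−0.57 to −0.42), sebaceous gland-like cells (−0.53 to −0.39), the Lgr5 cluster (−0.35 to −0.15) and cycling-like cells (−0.27 to −0.08), and changed sign under at least 1 alternative in the inner bulge-like, Flg2, Pthlh, dermal papilla-like, Sostdc1 and Ascl2 clusters. The number of linkers lower past the fold moved by more than 1.5 times as follows, and the cause was not tested. At a fold of 1.5, which a smaller set of ratios can pass, it was 0 in IFE basal-like and IFE suprabasal-like cells, in the Krt18, Ntrk2, Flg2, Lgr5, Pthlh and Sostdc1 clusters and in dermal papilla-like cells, 1 in cycling-like, 2 in HF-SC-like and 4 in sebaceous gland-like cells. When an interval below 0 was also required it was 0 in the Sostdc1 cluster. With cells under 5% mitochondrial UMIs it was 0 in IFE basal-like cells, the Pthlh and the Sostdc1 clusters, 2 in upper HF-like cells and the Flg2 cluster, and 5 in the Lgr5 cluster. In cells thinned to 5000 UMIs it was 0 in the Flg2 cluster, 1 in the Krt18 cluster and cycling-like cells, 2 in upper HF-like cells, and 3 in dermal papilla-like cells and the Ascl2 cluster. With the mean over cells of CPM it was 0 in the Flg2 cluster and dermal papilla-like cells, 1 in the Ascl2 cluster, 2 in upper HF-like cells and the Sostdc1 cluster, and 4 in the Ntrk2 cluster. Without the 5 cells with the most UMIs of each gene it was 2 in upper HF-like cells, 4 in the Ntrk2 cluster and 5 in the Lgr5 cluster. Totals without mitochondrial and ribosomal genes gave 0 in IFE basal-like and dermal papilla-like cells, the median-of-ratios size factor gave 0 in dermal papilla-like cells, resolution 0.5 gave 0 in the Pthlh cluster and dermal papilla-like cells, and leaving out the highest doublet scores gave 1 in the Ascl2 cluster. The Actn4 share was counted as moved in 26 alternative readings over clusters and libraries, and as the same in 78. Of the moved readings 11 were with cells under 5% mitochondrial UMIs and 13 without the 5 cells with the most UMIs. No paired analysis was possible because each group holds 1 library. Depth limits the immune and melanocyte-like clusters most, where a linker often had fewer than 50 UMIs.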
